A study of Mus musculus with 4 samples.

Results

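The CCR4-NOT complex shortens the poly(A) tails of messenger RNAs, and 10 genes of it and of its regulators are described here: Cnot1, Cnot2, Cnot3, Cnot4, Cnot6, Cnot6l, Cnot7, Cnot8, Btg1 and Tob1. They were taken by symbol from the 24169 genes of the deposited table, and each has 1 row. They were chosen by the FPKM values of the MBP and control libraries themselves, in which genes of poly(A) tail shortening leaned higher after MBP. Every MBP against control value of these 10 is therefore a description. Tests over all genes are given below, and none is read as evidence about the 10. Total RNA was sequenced from C8-D1A cells, an established line of mouse astrocytes, in 4 libraries. In 2 of them the cells had been kept for 24 h in 1 mM MBP, and in the other 2, the controls, they were untreated. The study as titled is about exposure of mothers to DBP (dibutyl phthalate, a plasticizer broken down mainly to monobutyl phthalate), but the labels write only MBP. All cells were of this 1 line in culture. Whether replicate libraries stem from separate cultures is not stated, so their spread may be technical.

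CCR4-NOT is the main deadenylase of the cytoplasm. Cnot1 is its scaffold, Cnot2 and Cnot3 form the NOT module, and Cnot4 is a ubiquitin ligase that binds the complex loosely in mammals. Tails are cut by a nuclease of the CCR4 type (Cnot6 or its paralogue Cnot6l) together with one of the CAF1 type (Cnot7 or its paralogue Cnot8). Btg1 and Tob1 are antiproliferative proteins that bind the CAF1 nucleases, and Tob1 also binds the cytoplasmic poly(A)-binding protein. A message with a short tail is then decapped or degraded from its tail end. The complex takes part in the turnover of most messages, among them the short-lived ones of cytokines and immediate early genes.

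Depth, worked out from what 1 read adds to an FPKM value and rounded, was 23954000 and 25907000 reads in the MBP libraries, against 24349000 and 23571000 in the controls. Of 10 astrocyte markers, S100b, Sox9 and Vim reached 1 FPKM in at least 2 libraries. Gfap, Slc1a2, Aldh1l1, Aldoc, Gja1 and Aqp4 stayed under 0.4 FPKM in every library, and Slc1a3, a defining astrocyte transporter, was at 0 in 3 of 4. The summed level of this list was 495 to 508 FPKM in MBP and 537 to 540 in control, nearly all of it Vim. Markers of other cell types were summed in the same way. Of 5 oligodendrocyte-lineage genes, 3 reached 1 FPKM, with sums of 103.3 to 103.7 FPKM in MBP and 111 to 116 in control. Of 4 neuronal genes, 2 did, with sums of 25.5 to 25.9 FPKM in MBP and 32.6 to 35.4 in control. In each of the other 3 lists, 1 of 5 genes did: microglia (5.10 to 5.71 FPKM in MBP and 6.04 to 6.43 in control), fibroblasts and pericytes (6.53 to 6.95 and 7.23 to 7.80) and endothelium (6.13 to 6.20 and 5.62 to 6.24), where Cldn5 was at 0. The part of these marker levels in the values below was not tested, and in bulk RNA fewer cells of a type and less RNA per cell cannot be told apart.

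Promoter sequences of 4 of the genes are shown before the values. The set of RefSeq promoters used here (GRCm38.p6) held entries for 8 of the 10 genes, all but Cnot1 and Cnot7. The 250 bases before the annotated start are printed for 4 of them. Cnot4 and Cnot6 had MBP libraries that both lay above both controls, while Btg1 and Tob1 bind the nucleases and had lower means in MBP. The stretches are chr6:35133738-35133987 on the minus strand for Cnot4, chr11:49712723-49712972 on the minus strand for Cnot6, chr10:96616751-96617000 on the plus strand for Btg1 and chr11:94211204-94211453 on the plus strand for Tob1. Each reads 5′ to 3′ along the gene. Capitals mark matches on either strand to the GC box GGGCGG, the CCAAT box CCAAT and the TATA motif TATAAA.
Cnot4: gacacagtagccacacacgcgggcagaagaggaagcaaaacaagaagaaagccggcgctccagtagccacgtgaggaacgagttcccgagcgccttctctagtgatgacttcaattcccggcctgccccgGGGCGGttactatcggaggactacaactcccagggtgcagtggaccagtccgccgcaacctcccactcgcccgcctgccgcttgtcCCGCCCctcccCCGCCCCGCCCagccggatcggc
Cnot6: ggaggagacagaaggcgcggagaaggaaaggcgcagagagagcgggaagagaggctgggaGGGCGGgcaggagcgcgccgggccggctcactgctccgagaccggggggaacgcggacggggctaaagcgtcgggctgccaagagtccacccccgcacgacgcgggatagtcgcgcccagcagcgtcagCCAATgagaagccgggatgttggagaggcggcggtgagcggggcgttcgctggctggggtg
Btg1: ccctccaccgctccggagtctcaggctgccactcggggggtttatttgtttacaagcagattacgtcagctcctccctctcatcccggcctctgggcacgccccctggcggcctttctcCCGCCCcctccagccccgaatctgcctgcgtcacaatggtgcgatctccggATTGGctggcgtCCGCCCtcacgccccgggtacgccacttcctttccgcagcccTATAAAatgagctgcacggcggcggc
Tob1: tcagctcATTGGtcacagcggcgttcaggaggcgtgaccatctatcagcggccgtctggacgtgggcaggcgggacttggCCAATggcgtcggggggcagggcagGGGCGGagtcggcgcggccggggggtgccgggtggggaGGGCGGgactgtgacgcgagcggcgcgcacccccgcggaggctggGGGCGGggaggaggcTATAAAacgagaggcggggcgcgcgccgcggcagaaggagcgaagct
Cnot4 held 4 GC boxes, with an overlapping pair among them, and no CCAAT or TATAAA. Cnot6 held 1 GC box and 1 CCAAT. Btg1 held 2 GC boxes, 1 CCAAT and a TATAAA that began 26 bases before the start. Tob1 held 3 GC boxes, 2 CCAAT and a TATAAA that began 47 bases before the start.

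Over the 8 genes with an entry, the GC box was present in 8 stretches, CCAAT in 4 and TATAAA in 2, those of Btg1 and Tob1. Of 32851 RefSeq promoter stretches of the same length, 32.7% held the GC box, 33.8% held CCAAT and 12.4% held TATAAA. The ETS motif CCGGAAG (6.91% of all stretches), the cyclic AMP element TGACGTCA (1.55%) and the NRF1 motif (0.782%) were found in 0 of the 8. Each match is a string of letters and not a shown binding site. The 8 stretches held from 10 CpG dinucleotides (Cnot2) to 37 (Cnot6l), and the median over all stretches was 6. For Cnot6l and Cnot2 the nearest start in this promoter set lay 2181 and 975 bases from the gene start in the deposited table. The promoter in use may therefore be another one.

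The first comparison concerned the RNA level of each gene in the cells. Levels are in FPKM, which is per length of gene, here the bases covered by any of its exons. That length was 9779 bases for Cnot4, whose longest transcript has 3941, and 2288 for Tob1, whose longest transcript also has 2288. The order and tiers below hold for this length and may differ with another. All 10 genes were expressed, on 628 to 12064 reads per library, and their mean levels over the 4 libraries spanned 3.02-fold. The scaffold Cnot1 (chromosome 8, 95719451 to 95807464, minus strand, GRCm38) stood highest at a mean of 26.8 FPKM. The nuclease genes Cnot6 at 25.3 FPKM and Cnot8 at 23.1 followed, then the NOT-module gene Cnot2 at 22.3. A second tier held Cnot6l at 15.7 FPKM, Cnot3 at 14.1, Cnot7 at 12.8 and Tob1 at 12.2. Cnot4 at 9.16 FPKM and Btg1 at 8.86 were lowest. Ranges over the 4 libraries overlapped between neighbours in this order except at 2 steps, from Cnot2 to Cnot6l and from Tob1 to Cnot4. Inside the 3 tiers, ranges over both groups overlapped between all neighbours. Cnot8 was still above Cnot2, and Cnot6l above Cnot3, in 4 of 4 libraries, while each other pair of neighbours inside a tier kept its order in 3 of 4.

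**Figure D1:**
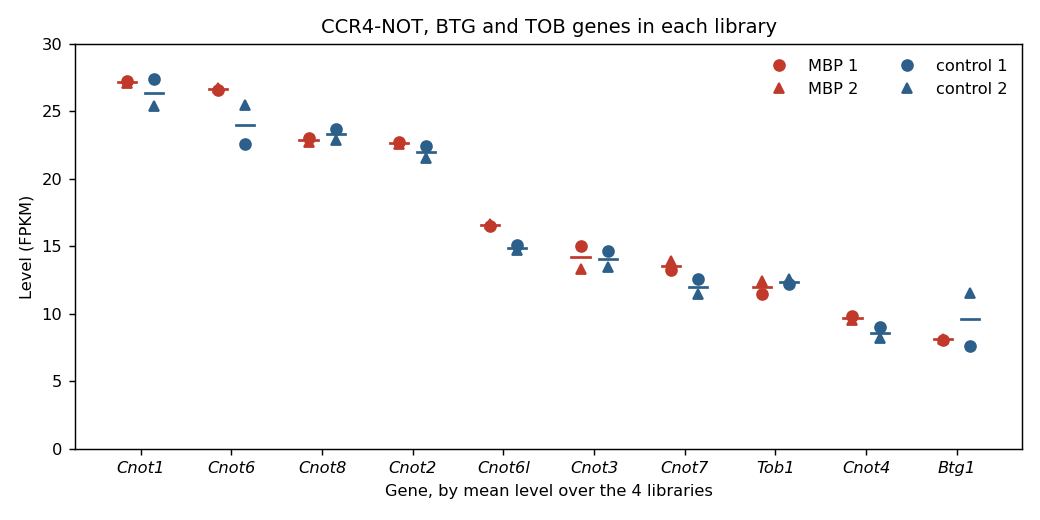
Level in FPKM of each of the 10 genes in every library, ordered by mean level. Circles and triangles are replicates 1 and 2, short bars are group means (n = 2), and MBP stands left of control. The genes fall into 3 tiers, and control 2 lies above the other libraries for Btg1, at 11.6 FPKM.

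Within each nuclease type one paralogue gave most of the level in every library. Cnot6 gave 61.7% of the summed Cnot6 and Cnot6l FPKM in each MBP library, against 59.9% and 63.3% in the controls, so the MBP values lay between the controls. Cnot7 gave 36.5% and 38.0% of the summed Cnot7 and Cnot8 FPKM in the MBP libraries, against 34.7% and 33.3% in the controls. Here the groups did not overlap, as was so for the levels of 44.8% of all genes tested. The contrast was used to pick these genes, so nothing is read from this. The 4 nuclease genes together had 79.3 and 80.1 FPKM in MBP, against 73.9 and 74.5 in control. The sum of Cnot1, Cnot2 and Cnot3 was 65.0 and 63.0 FPKM in MBP, against 64.5 and 60.4 in control, and these groups overlapped.

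The next comparison was MBP-treated against untreated cells. Of the 10 genes, 7 had a higher and 3 a lower value in MBP on the log2(FPKM + 1) scale, and the largest difference was -0.19. Of all genes tested, 48.4% had a higher value in MBP. Both MBP libraries lay above both controls for 5 genes, Cnot2, Cnot4, Cnot6, Cnot6l and Cnot7, and the groups overlapped for the other 5. Groups that did not overlap were common: 44.8% of the 12403 genes tested had them, 21.3% with MBP higher and 23.5% with MBP lower. Since the contrast was used to pick the genes, nothing is read from their count. The median difference of the 10 was 0.042, and that of all genes tested was -0.0048. In limma's moderated test with Benjamini-Hochberg adjustment, 0 of the 12403 genes (0%) passed, while 1201 (9.68%) had an unadjusted p under 0.05. Limma-voom on recovered reads called 18 of 14518 genes (0.124%), of which 0 were among the 10.

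Of the 4 genes with the widest higher values in MBP, 3 encode nucleases. Cnot7 (chromosome 8, 40492540 to 40515847), a CAF1-type nuclease, had 13.2 and 13.9 FPKM in the MBP libraries, against 12.6 and 11.5 in the controls, a log2 difference of 0.16. Its span, introns included, shares 4065 bases with that of Vps37a and 17729 with that of Zdhhc2, both on the other strand. How much of this is exon was not worked out, and whether counting used strand is not stated in the labels. Vps37a had 12.0 and 12.6 FPKM in MBP and 12.0 and 10.2 in control, so the Cnot7 value is uncertain. Its paralogue Cnot8 (chromosome 11, 58104153 to 58118594) had 23.04 and 22.8 FPKM in MBP, against 23.7 and 22.9 in control, a difference of -0.023 with overlapping groups.

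Cnot6l (chromosome 5, 96070333 to 96164171), a CCR4-type nuclease, had 16.5 and 16.6 FPKM in MBP, against 15.1 and 14.7 in control, a log2 difference of 0.14. Its values were the tightest of the set relative to the difference, with the MBP libraries 0.012 apart and the controls 0.035 apart on the same scale. Cnot6 (chromosome 11, 49671503 to 49712723) had 26.6 and 26.8 FPKM in MBP, against 22.6 and 25.4 in control, a difference of 0.15. The Cnot6 controls were 0.17 apart, more than the groups, and its difference was 0.065 without control 1 and 0.23 without control 2.

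Among structural genes, Cnot1 had 27.2 and 27.1 FPKM in MBP, against 27.4 and 25.4 in control, a difference of 0.043. Control 1 was the highest library and control 2 the lowest, so the groups overlapped. The span of Cnot1 overlaps that of 4930513N10Rik (0.42 to 0.53 FPKM), on the other strand, by 721 bases. Cnot2 (chromosome 10, 116485161 to 116581511) had 22.8 and 22.6 FPKM in MBP, against 22.5 and 21.5 in control, a difference of 0.041. Its groups did not overlap, but the controls were 0.059 apart. The span of Cnot2 overlaps that of 5330438D12Rik (0.27 to 0.46 FPKM), on the other strand, by 72460 bases. Cnot3 (chromosome 7, 3645268 to 3661109) had 15.04 and 13.4 FPKM in MBP, against 14.6 and 13.5 in control, a difference of 0.0098. The sign of this difference turned when MBP 1 or control 2 was left out. The span of Cnot3 overlaps that of Leng1 (2.12 to 3.33 FPKM), on the other strand, by 1012 bases. The ubiquitin ligase gene Cnot4 (chromosome 6, 35022065 to 35133724) had 9.87 and 9.58 FPKM in MBP, against 9.01 and 8.19 in control, a difference of 0.16, with both MBP libraries higher.

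The regulators had lower means in MBP, with overlapping groups. Btg1 (chromosome 10, 96617006 to 96622809) had 8.09 and 8.14 FPKM in MBP, against 7.64 and 11.6 in control. The difference of -0.19 rested on control 2: without that library it was 0.078, and without control 1 it was -0.46. The 1439 reads of Btg1 in control 2 give an exact Poisson 95% interval of 10.98 to 12.2 FPKM, which covers counting error only. The 981 reads of control 1 give 7.17 to 8.13 FPKM, so the controls differed by more than counting error. Tob1 (chromosome 11, 94211454 to 94215495) had 11.5 and 12.5 FPKM in MBP, against 12.2 and 12.6 in control, a difference of -0.049 that was 0.0076 without MBP 1.

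**Figure D2:**
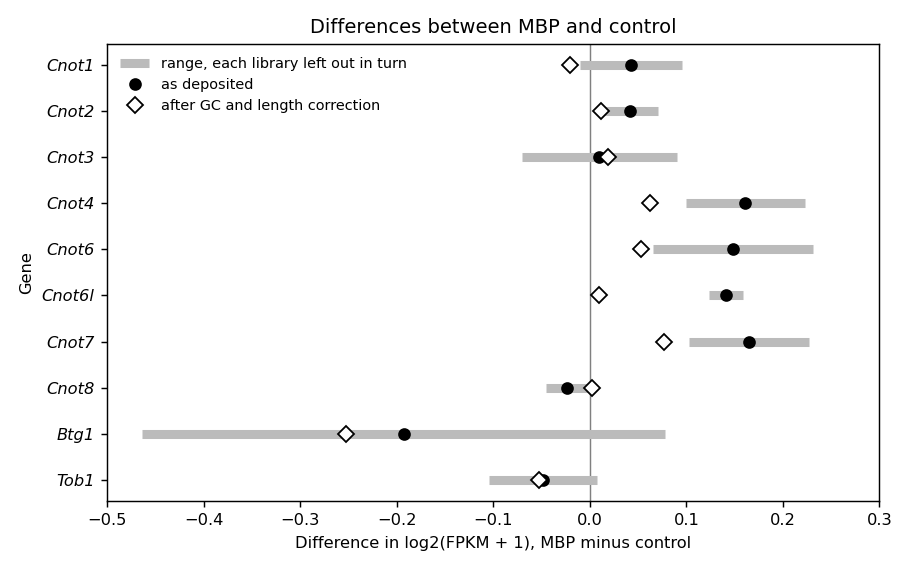
Difference in log2(FPKM + 1), MBP minus control, for each of the 10 genes. Filled circles are the deposited values, open diamonds the values after correction for transcript GC content and length, and grey bars the range when each of the 4 libraries is left out in turn. The bars of Cnot2, Cnot4, Cnot6, Cnot6l and Cnot7 stay above 0, that of Btg1 runs from -0.46 to 0.078, and the corrected values of Cnot4, Cnot6, Cnot6l and Cnot7 lie at 0.077 or below.

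For 3 of the 10 genes, Cnot4, Cnot6l and Cnot7, the difference between groups was larger than the difference between replicates in either group, as it was for 30.9% of all genes tested. When each library was left out in turn, 6 genes kept their sign throughout, namely Cnot2, Cnot4, Cnot6, Cnot6l, Cnot7 and Cnot8. The sign of Cnot1, Cnot3, Btg1 and Tob1 turned in at least 1 of the 4 cases. Rescaling to TPM, median-of-ratios scaling and quantile normalization turned no sign.

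GC content of the transcript moved with these values. The 4 genes with the lowest GC content, Cnot4 (37.0%), Cnot6l (37.6%), Cnot7 (38.2%) and Cnot6 (39.8%), were the 4 with differences of 0.14 to 0.16. The other 6 had 43.1% (Btg1) to 50.4% (Cnot3), and the median of the 12389 genes tested with a known GC content was 49.0%. Over the 931 tested genes of 35% to 40% GC the median difference was 0.086, and 76.7% of them were above 0. Over the 3001 genes of 50% to 55% the median was -0.041, and 33.3% were above 0. After a loess correction for GC content and length the differences were 0.077 for Cnot7, 0.062 for Cnot4, 0.053 for Cnot6 and 0.0098 for Cnot6l. Cnot1 turned to -0.020 and Cnot8 to 0.0026, while Btg1 stood at -0.25 and Tob1 at -0.053. The median of the 10 after correction was 0.011, against -0.00078 for all genes. Whether GC content sets the uncorrected differences was not tested.

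**Figure D3:**
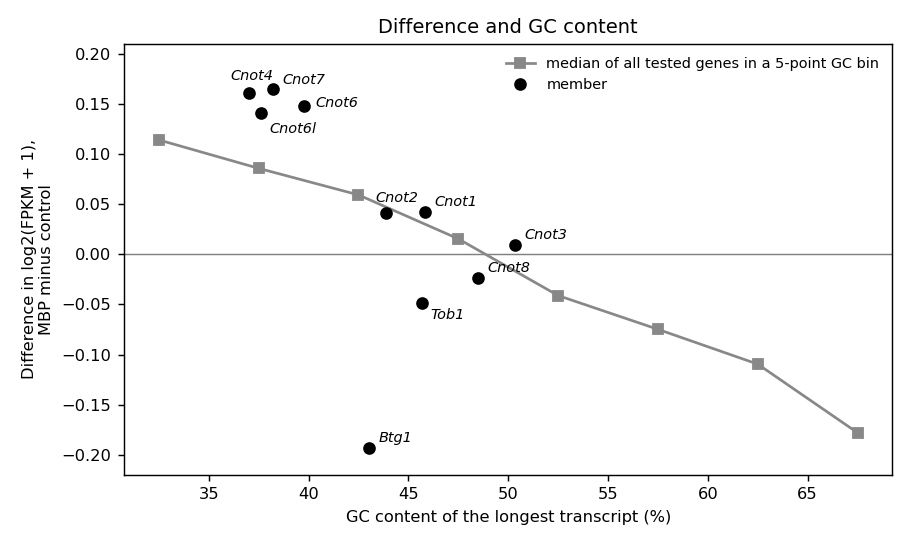
Difference in log2(FPKM + 1), MBP minus control, against the GC content of the longest transcript (%). Black points are the 10 genes, and grey squares are medians of all tested genes in bins of 5 percentage points. Bin medians run from 0.11 at 30% to 35% GC to -0.18 at 65% to 70%, and Cnot4, Cnot6, Cnot6l and Cnot7 lie together at the low-GC end above the bin median of 0.086.

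The remaining genes of the complex and of its protein families gave no common direction. Cnot9, the subunit that binds the silencing proteins of the microRNA pathway, had 32.9 and 30.1 FPKM in MBP, against 30.9 and 31.7 in control. Cnot10 had 14.9 and 15.9 FPKM in MBP and 14.9 and 14.9 in control, and Cnot11, its partner in the complex, had 15.3 and 14.3 in MBP and 15.3 and 16.1 in control. Tnks1bp1, a protein found with the complex in human cells, had 25.4 and 23.5 FPKM in MBP and 26.0 and 25.5 in control. Both MBP libraries lay below both controls for Cnot11 (-0.084) and Tnks1bp1 (-0.073), as they did for 23.5% of all genes tested. The median of these 4 was -0.032, and 0.0034 after the GC and length correction. In the BTG and TOB family, Btg3 had 16.4 and 16.1 FPKM in MBP and 16.0 and 18.8 in control, with control 2 highest as for Btg1. Tob2 had 19.7 and 21.8 FPKM in MBP and 19.1 and 20.5 in control. Btg2 and Btg4 lay under the filter, at 10 to 20 reads and 0 to 3 reads per library.

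Other genes that shorten, bind, extend or degrade poly(A) messages were taken as 8 lists of 103 genes, counting the complex and family genes above. The table held 100 of them and 88 passed the filter. Pabpc5, Nanos2 and Exosc6 were not analysed here. Limma's test called 0 of the 88, and limma-voom called 0. Of the 88, 25 had both MBP libraries above both controls (28.4%, against 21.3% of all genes tested) and 17 had both below (19.3%, against 23.5%). Their median difference was 0.025, and 0.0042 after the GC and length correction. The lists were chosen with earlier results of these data known, so these counts and those of each list are a description.

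Among the 7 tested other deadenylases the median was 0.077, and 0.0090 after the GC and length correction. Of the 7, 4 were higher in MBP (57.1%) and 1 lower (14.3%) without overlap. Over all genes tested these shares were 21.3% and 23.5%. Pan3, the adaptor of the PAN2 nuclease, had 10.2 and 10.7 FPKM in MBP, against 9.41 and 8.43 in control, a difference of 0.20 that stood at 0.17 after correction. Parn, a nuclear and cytoplasmic poly(A) nuclease, had 9.34 and 9.80 FPKM in MBP, against 9.01 and 8.48 in control, at 0.12 and 0.13 after correction. Among 6 poly(A)-binding proteins and their partners the median was 0.066, and 0.030 after correction. Of the 6, 3 were higher (50%) and 0 lower without overlap. Pabpc1, the main cytoplasmic poly(A)-binding protein, had 445 and 423 FPKM in MBP, against 421 and 417 in control, at 0.051 and 0.030 after correction. Pabpc4 had 39.4 and 38.8 FPKM in MBP, against 37.7 and 44.5 in control, with overlapping groups. Nuclear Pabpn1 had 3.31 and 3.31 FPKM in MBP, against 2.81 and 3.01 in control, at 0.14 and 0.23 after correction.

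Proteins that bring the complex to messages had a median of 0.065 over 24 tested genes, and 0.022 after the GC and length correction. Of the 24, 10 were higher (41.7%) and 2 lower (8.33%) without overlap. Over all genes tested these shares were 21.3% and 23.5%. Pum2, an RNA-binding repressor, had 38.2 and 39.2 FPKM in MBP, against 36.9 and 37.3 in control, and its difference of 0.059 turned to -0.022 after correction. Ago2, the slicing Argonaute of the microRNA pathway, had 35.1 and 34.7 FPKM in MBP, against 32.9 and 32.5 in control, at 0.090 and 0.037 after correction. Ago3 had 6.41 and 6.39 FPKM in MBP, against 5.81 and 5.37 in control, at 0.17 and 0.050 after correction. In all 3 both MBP libraries lay above both controls.

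Downstream of tail shortening, values went both ways. Decapping and 5′ decay genes had a median of -0.017 over 18, and -0.0092 after the GC and length correction. Of the 18, 3 were higher (16.7%) and 5 lower (27.8%) without overlap. Over all genes tested these shares were 21.3% and 23.5%. The helicase Ddx6 had 45.7 and 50.0 FPKM in MBP, against 46.0 and 47.5 in control. The ring subunit Lsm4 had 59.5 and 58.9 FPKM in MBP, against 61.7 and 61.1 in control. Its difference of -0.052 turned to 0.072 after correction. The ring subunit Lsm7 had 6.34 and 5.93 FPKM in MBP, against 7.46 and 6.55 in control, at -0.16 and -0.066 after correction. Before correction both had lower values in MBP. The exosome and its SKI helper complex had a median of -0.0040 over 16, and -0.016 after correction. Of the 16, 3 were higher (18.8%) and 4 lower (25%) without overlap. The exosome nuclease Dis3 had 33.5 and 37.1 FPKM in MBP, against 38.6 and 38.3 in control. The core subunits Exosc1 (41.4 and 38.8, against 42.1 and 42.1) and Exosc4 (6.57 and 6.49, against 7.58 and 7.29) were also lower without overlap. After correction Dis3 stood at -0.18, Exosc1 at -0.077 and Exosc4 at -0.082.

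Poly(A) polymerases and terminal uridylyltransferases had a median of 0.033 over 11, and 0.0042 after the GC and length correction. Of the 11, 2 were higher (18.2%) and 3 lower (27.3%) without overlap. Over all genes tested these shares were 21.3% and 23.5%. Papola, the main nuclear poly(A) polymerase, had 49.0 and 48.9 FPKM in MBP, against 48.1 and 44.6 in control, at 0.079 and 0.026 after correction. Tut1, a terminal uridylyltransferase, had 22.2 and 21.7 FPKM in MBP, against 22.4 and 23.04 in control. Its difference of -0.048 turned to 0.020 after correction. Fam46b, a cytoplasmic poly(A) polymerase, had 2.70 and 1.97 FPKM in MBP, against 3.21 and 3.95 in control, a difference of -0.46 that stood at -0.36 after correction. It was the widest difference of the 88 genes, at a low level.

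**Figure D4:**
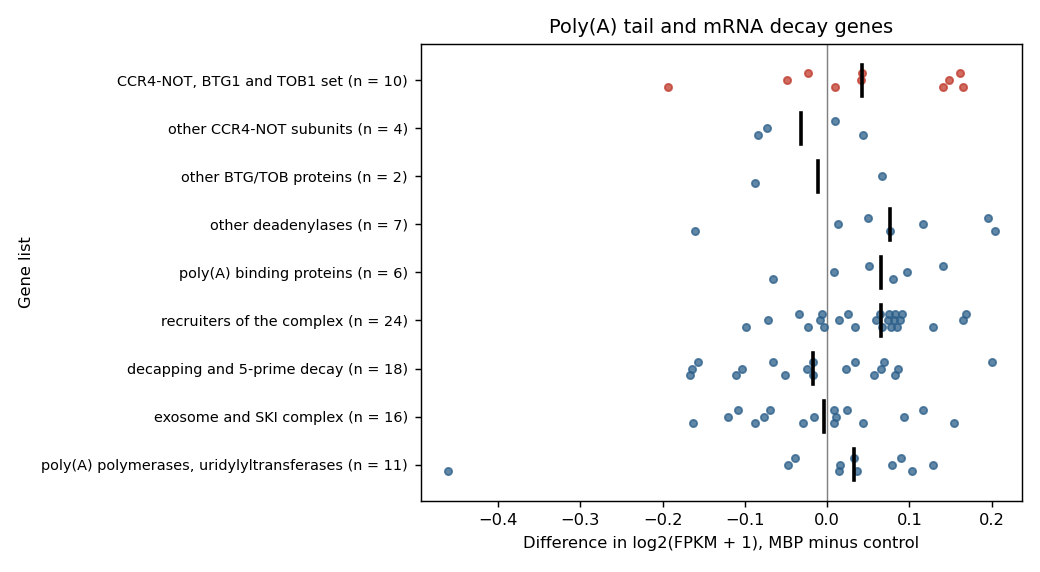
Difference in log2(FPKM + 1), MBP minus control, of each tested gene, by list. Red points are the 10 genes described here, blue points the 88 other genes in 8 lists, and black bars list medians. Medians lie between -0.032 for the other CCR4-NOT subunits and 0.077 for the other deadenylases, and each list of 4 or more genes has values on both sides of 0.

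The gene annotation deposited with the table gives a second grouping. Its GO term for poly(A) tail shortening is on 16 genes, of which 12 passed the filter and 4, Cnot2, Cnot4, Cnot6 and Cnot7, are among the 10. The 12 had a median difference of 0.13, which the GC and length correction took to 0.073. Of the 12, 8 were higher (66.7%) and 0 lower without overlap, against 21.3% and 23.5% of all genes tested. This term is near to the choice of the 10 genes and is not separate evidence. The term for positive regulation of the same process is on 20 genes. Its 12 tested genes had a median of 0.057, and 0.033 after correction. Of these 12, 3 were higher (25%) and 2 lower (16.7%) without overlap.

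Genes with a profile like the mean of the 10 were sought among 10091 protein-coding genes, as a description over 4 libraries. The mean profile, centred on log2(FPKM + 1), was 0.023 and 0.021 in MBP and -0.029 and -0.015 in control. Nearest by root mean square difference were Limd1 (0.0027), Mrps15 (0.0030) and Abhd2 (0.0035). Limd1 had 14.5 and 14.5 FPKM in MBP, against 13.9 and 14.1 in control. With so few libraries and so many genes, close matches of this kind occur for any profile.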

How the data were processed

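RNA-seq was run on rRNA-depleted total RNA of 4 C8-D1A samples with a directional kit, per the labels' protocols. Per the submitters' processing notes, bcl2fastq and HISAT2 were run with GRCm38. For their versions, the counter, its annotation and its strand setting: not given in the sources used here. What the authors deposited is FPKM, reads scaled by gene length and library depth, in 1 table. Columns were matched to samples by title, and replicates were numbered in accession order, which pairs nothing.

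FPKM times exon length (GENCODE M21, 24121 identifiers matched) came to whole reads at 1 scale per library. Within 0.05 reads, at least 99.95% of values under 1000 reads were whole for 6079 single-exon genes and 95.2% for all genes. No molecular identifiers are described, so reads are not independent molecules.

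Values were tested as log2(FPKM + 1), two-sided, for 12403 genes (2 or more samples at 1 FPKM or above). The tool was limma 3.58.1 in R 4.3.3 (trended spread, Benjamini-Hochberg threshold 0.05). Differences on this scale understate those of low genes. On simulated data with known changes the test missed most of the smallest ones and made more false calls than its threshold allows. The smallest simulated fold change was larger than that of any of the 10 members. The simulation also set the same spread beyond counting error for every gene. A count of 0 therefore does not show that no gene changed. The members and lists were chosen with earlier results of these data known. Named genes were all 10 members, all of the first 2 lists, and from each other list the 2 highest by level and the 1 with the widest difference without overlap. The alternatives tried were pseudocounts of 0.1 and 0.01, other filters, scalings and spread models, a GC and length loess (span 0.5), each library left out, and limma-voom on the recovered reads (mean of 10 or more per gene).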

Additional observations from a re-analysis of the deposited data

How the results depend on the processing

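The count of 0 genes passing limma's test held in the 14 alternatives on FPKM, whose lowest adjusted p ran from 0.0563 (protein-coding genes only) to 0.482 (without control 2). Limma-voom on recovered reads called 18 genes, 1 higher and 17 lower in MBP. For the 10 genes the median log2 difference of 0.042 moved to 0.011 with the GC and length correction, and ran from 0.038 to 0.068 with 1 library left out. For the 88 other poly(A) and decay genes the median of 0.025 moved to 0.050 in TPM and to 0.0042 with the GC and length correction, and ran from 0.010 (without control 2) to 0.042 (without control 1). Among single members, values moved by more than 1 SD between replicates for 6 genes under the GC and length correction (Cnot1, Cnot4, Cnot6, Cnot6l, Cnot7 and Cnot8) and for Cnot6l in TPM. Filters and the choice of protein-coding genes cannot move a member's difference, and leaving out 1 of 2 replicates cannot move it by more than that SD. The order of mean levels was the same in TPM, with a span of 3.03-fold. TPM rescales each library by 1 factor, so it cannot reorder genes within a library. No other gene length was tried for the levels. The causes of the moves above were not tested. With a library left out, the lone sample of its group is assumed to vary like the other group. No paired analysis was possible because the titles of the groups share fewer than 2 replicate numbers, and nothing in the labels says that a number marks a pair.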
